A study of Mus musculus with 6 samples.

Results

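The 10 immediate early genes Fos, Fosb, Jun, Junb, Atf3, Egr1, Klf2, Klf4, Nr4a1 and Zfp36 were chosen by name and were 10 of the 19057 genes with a probe of their own on the array. They were measured with 13 probes on 6 one-colour Illumina MouseWG-6 v2 arrays, hybridised with RNA of cardiomyocyte-enriched populations from C57BL/6J mice. Each of 3 groups had 2 arrays, which the study calls biological replicates. The sham group had sham surgery, with no drug or vehicle named. The TAC_DMSO group had transverse aortic constriction, a banding of the aorta that raises the pressure load on the left ventricle, and DMSO. The TAC_BIX group had the same constriction and BIX-01294, an inhibitor of the histone H3 lysine 9 methyltransferases G9a and GLP, for 1 week from subcutaneous mini-osmotic pumps. The labels do not state how long DMSO was given, when after banding the cells were collected, or how many mice an array represents. No agent is named for sham, so constriction cannot be told apart from DMSO in TAC_DMSO against sham, or from BIX-01294 in TAC_BIX against sham.

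Immediate early genes are transcribed within minutes of a stimulus, without new protein synthesis, by factors that already wait at their promoters. In the heart they respond to stretch, pressure and neurohormones, and most of their products are transcription factors that act on later genes. They are also known to rise when tissue is digested into single cells.

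Sequences before the start sites are shown because Klf2, Klf4 and Zfp36, the members called lower in TAC_BIX than in sham, held the letters GCGGGGGCG. This is the motif of the EGR family of zinc finger factors. Nr4a1 and Fosb held it too, but Nr4a1 was kept through its sham arrays alone and Fosb was not called in any comparison. Whether the motif is linked to the differences was not tested. The windows were the 250 bases before each RefSeq start (GRCm38.p6), searched on both strands. An entry was there for 9 of the 10 members, all but Egr1, which was not searched. All sequences read 5′ to 3′ in the direction of the gene and end at the base before its start. In the first 4, capitals mark the EGR motif or, in Klf4 and Nr4a1, its reverse complement.
Klf2, chr8:72318842-72319061, plus strand: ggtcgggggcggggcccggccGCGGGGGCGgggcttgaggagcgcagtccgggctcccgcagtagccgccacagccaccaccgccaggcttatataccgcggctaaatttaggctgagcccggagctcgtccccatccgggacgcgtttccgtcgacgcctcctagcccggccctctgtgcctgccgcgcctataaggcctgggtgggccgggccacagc
Klf4, chr4:55532476-55532695, minus strand: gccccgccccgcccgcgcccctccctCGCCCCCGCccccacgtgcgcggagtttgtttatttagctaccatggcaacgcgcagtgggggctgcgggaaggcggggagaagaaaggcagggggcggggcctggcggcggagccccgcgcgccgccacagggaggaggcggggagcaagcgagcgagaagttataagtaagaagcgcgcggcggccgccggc
Nr4a1, chr15:101266746-101266845, plus strand: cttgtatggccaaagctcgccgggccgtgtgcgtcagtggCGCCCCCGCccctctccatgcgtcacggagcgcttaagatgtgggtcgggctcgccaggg
Zfp36, chr7:28379229-28379368, minus strand: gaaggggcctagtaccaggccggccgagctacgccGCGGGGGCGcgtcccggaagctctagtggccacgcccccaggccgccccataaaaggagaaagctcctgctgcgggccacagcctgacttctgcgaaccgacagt
The EGR motif lay 199 to 191 bases before the start of Klf2, 194 to 186 before that of Klf4, 60 to 52 before that of Nr4a1 and 105 to 97 before that of Zfp36. Fosb also held it, so that 5 of 9 member windows did, against 2.57% of the 32851 windows of that length. The member windows had a median of 66.4% G and C, against 52.4% for all windows, and the motif consists of G and C alone. The shorter GC box GGGCGG, which overlaps the EGR motif in several windows, was in 8 of 9 member windows and in 32.7% of all.

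The windows of Fos, Jun, Junb and Atf3, none of which was called, held no EGR motif, while that of Fosb, also not called, held it. In Fos, capitals mark the half-site TGACG of the cyclic AMP response element, and in Jun the motif of the MEF2 factors.
Fos, chr12:85473790-85473889, plus strand: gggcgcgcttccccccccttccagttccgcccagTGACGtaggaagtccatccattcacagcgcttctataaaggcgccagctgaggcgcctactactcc
Jun, chr4:95052223-95052302, minus strand: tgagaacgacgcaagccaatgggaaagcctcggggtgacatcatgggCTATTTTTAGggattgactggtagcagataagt
The half-site TGACG was in 7 of 9 member windows (Atf3, Fos, Fosb, Junb, Klf2, Klf4 and Nr4a1) and in 17.8% of all windows. The full element TGACGTCA and the AP-1 motif TGACTCA were in 0 of 9, against 1.55% and 4.46% of all. The MEF2 motif was in Atf3, Jun and Klf2 and in 2.92% of all windows. The CArG box, the motif of serum response factor, was in Zfp36 and in 1.47% of all. A match of letters is not a measured binding site, and no match says only that those letters are not in this window.

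Of the 45281 probes, 36.7% to 40.9% were detected per array at a detection p-value under 0.05. The mean deposited signal ran from 391.1 to 439.3 on the 4 arrays of the constricted groups, while the sham arrays were dimmer at 357.9 and 296.3. Cardiomyocyte markers were measured for 11 of 12 listed genes, all detected on 6 arrays, and Myh6, the adult myosin heavy chain gene, lay at 14.56 to 14.76 near the highest log2 signal of 14.98. Endothelial (13 of 13), fibroblast (11 of 12) and macrophage and leukocyte markers (12 of 15) also passed the detection filter, so the populations held RNA of other heart cells. In such bulk RNA, fewer cells of a type and less RNA per cell cannot be told apart.

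All 10 members passed the filter of detection on at least 2 of 6 arrays, Nr4a1 only through the sham arrays. Values are background-corrected, quantile-normalized log2 signals, and differences are in log2 units with the standard error of a limma model fitted to 10538 genes. A gene is said to have risen or fallen where its Benjamini-Hochberg adjusted p over those genes was under 0.05. By that rule 0 of 10 members changed in TAC_DMSO against sham, and 0 of 10 in TAC_BIX against TAC_DMSO. In TAC_BIX against sham Klf2, Klf4 and Zfp36 fell, 3 of the 9 members detected in each group. Nr4a1 also had an adjusted p under 0.05 there, but the filter kept it through the group where it is high, so it is left out of the counts and given as a bound. The same shares over all genes tested were 0.408%, 0.0% and 6.65%, with 3.91% falling and 2.74% rising in the last. At an unadjusted p under 0.05, limma found 3, 1 and 4 of those 9 members, against 22.4%, 19.8% and 26.4% of all genes.

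**Figure D1:**
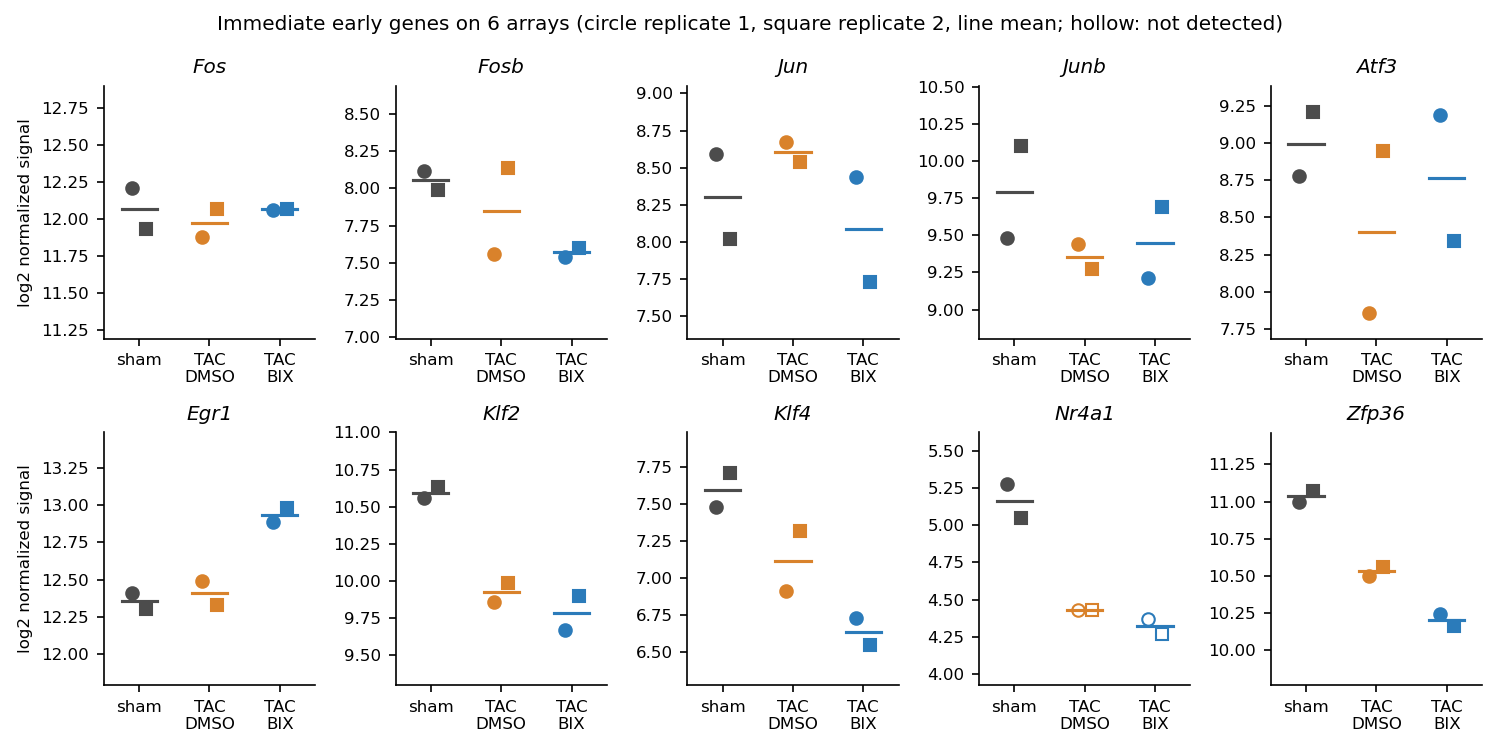
Log2 normalized signal (vertical axis, 1 panel per gene, each with its own range) of the 10 immediate early genes on the 6 arrays, by group. Circles are replicate 1, squares replicate 2 and lines group means, with hollow symbols where the gene was not detected; Klf2, Klf4 and Zfp36 lie above both constricted groups in sham, Nr4a1 is hollow in both constricted groups, Egr1 lies highest in TAC_BIX, and Fos spans 0.33 log2 over all arrays.

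The first group by role is AP-1, the dimeric factor that Fos proteins form with Jun proteins. Fos, whose product cannot bind DNA without a Jun partner, measured 12.21 and 11.93 in sham, then 11.88 and 12.07 in TAC_DMSO and 12.06 and 12.07 in TAC_BIX. The 3 groups overlapped within a total range of 0.33. Fos differed by -0.09 ± 0.18 (SE) between TAC_DMSO and sham, by 0.09 ± 0.18 between TAC_BIX and TAC_DMSO, and by -0.00 ± 0.18 between TAC_BIX and sham (adjusted p = 0.800, 0.828 and 0.992). The 95% interval of the last difference ran from -0.43 to 0.42, so these arrays do not exclude a difference within that range in either direction. On the deposited scale, before any scaling between arrays, Fos was 4341 and 2633 in sham against 4851 and 5169 in TAC_BIX.

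Fosb, a Fos relative, measured 8.12 and 7.99 in sham, then 7.56 and 8.14 in TAC_DMSO and 7.54 and 7.60 in TAC_BIX. The TAC_BIX arrays lay below both sham arrays, while the TAC_DMSO arrays spanned nearly the whole range. The difference between TAC_BIX and sham was -0.48 ± 0.22 and did not pass (adjusted p = 0.211). Fosb differed by -0.21 ± 0.22 in TAC_DMSO against sham and by -0.28 ± 0.22 in TAC_BIX against TAC_DMSO (adjusted p = 0.619 and 0.525).

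Jun, the Fos partner with the strongest transactivating function, measured 8.59 and 8.02 in sham, then 8.67 and 8.54 in TAC_DMSO and 8.44 and 7.73 in TAC_BIX. It was the only member with its highest group mean in TAC_DMSO, 8.61 ± 0.09 (SD, n = 2), and the sham and TAC_BIX arrays overlapped. Jun differed by 0.30 ± 0.28 in TAC_DMSO against sham, -0.52 ± 0.28 in TAC_BIX against TAC_DMSO and -0.22 ± 0.28 in TAC_BIX against sham (adjusted p = 0.567, 0.353 and 0.667). The SDs of 0.40 in sham and 0.50 in TAC_BIX were as large as these differences or larger, except for that between the constricted groups.

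Junb, a Jun relative that often opposes Jun at growth genes, measured 9.48 and 10.10 in sham, then 9.44 and 9.27 in TAC_DMSO and 9.21 and 9.69 in TAC_BIX. Both TAC_DMSO arrays lay below both sham arrays. No comparison passed, with differences of -0.44 ± 0.26, 0.10 ± 0.26 and -0.34 ± 0.26 in the order TAC_DMSO against sham, TAC_BIX against TAC_DMSO and TAC_BIX against sham (adjusted p = 0.364, 0.873 and 0.447). A second probe for Junb was detected on 0 of 6 arrays and was not used.

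Atf3, a stress-induced member of the ATF and CREB family that also pairs with Jun proteins, varied most between replicates. It measured 8.78 and 9.21 in sham, then 7.86 and 8.95 in TAC_DMSO and 9.19 and 8.34 in TAC_BIX. Replicates of a constricted group differed by more than the group means did, with SDs of 0.77 and 0.60. The differences, in the same order, were -0.58 ± 0.40, 0.36 ± 0.40 and -0.23 ± 0.40 (adjusted p = 0.432, 0.670 and 0.765). The lowest bound of their 95% intervals was -1.52 and the highest 1.30, the widest span of any member.

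Egr1 encodes a zinc finger factor, induced by pressure and stretch, that binds the GC-rich motif shown above. It measured 12.41 and 12.30 in sham, then 12.49 and 12.33 in TAC_DMSO and 12.89 and 12.98 in TAC_BIX. The TAC_BIX arrays were the highest, with no overlap with either other group, while sham and TAC_DMSO overlapped. Egr1 was 1.49-fold higher in TAC_BIX than in sham (0.58 ± 0.17, 95% interval 0.19 to 0.97) and 1.44-fold higher than in TAC_DMSO (0.53 ± 0.17, 0.13 to 0.92). Neither passed the test over all genes (adjusted p = 0.0828 and 0.155, unadjusted p = 0.00955 and 0.0151). TAC_DMSO differed from sham by 0.05 ± 0.17 (adjusted p = 0.884).

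Egr1 was the only member above both other groups in TAC_BIX. Without overlap, 29.8% of all genes lay higher in TAC_BIX than in sham and 28.7% higher in TAC_BIX than in TAC_DMSO, so the separation itself is common on these arrays. The deposited signals had the same order of groups, at 5029 and 3391 in sham, then 6858 and 5428 in TAC_DMSO and 8086 and 8905 in TAC_BIX. The test outcome depended on the setting. Over 17 alternatives the difference from sham ran from 0.20 to 0.93 and passed in 5, and the difference from TAC_DMSO ran from 0.14 to 0.60 and passed in 3. With the authors' processed values both passed, at 0.60 and 0.55 (adjusted p = 0.0243 and 0.0317). The lowest values came from scaling on detected probes, an alternative chosen after seeing the data, under which the median of all genes moved by -0.192 in TAC_BIX against sham.

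Klf2 and Klf4 encode Krüppel-like zinc finger factors that hold endothelium in a quiescent, anti-inflammatory state, and Klf2 is induced by laminar blood flow. Klf2 (chr8:72319062-72321654) measured 10.56 and 10.63 in sham, then 9.86 and 9.99 in TAC_DMSO and 9.67 and 9.90 in TAC_BIX. Both sham arrays lay above all 4 arrays of the constricted groups, which overlapped each other. Klf2 fell 1.76-fold in TAC_BIX against sham (-0.81 ± 0.18, 95% interval -1.22 to -0.40, adjusted p = 0.0391). In TAC_DMSO against sham it differed by -0.67 ± 0.18 (adjusted p = 0.0973), and between the constricted groups by -0.14 ± 0.18 (adjusted p = 0.709, 95% interval -0.55 to 0.27).

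Klf4 (chr4:55527137-55532475) was represented by its brightest of 3 probes, which measured 7.48 and 7.71 in sham, then 6.91 and 7.32 in TAC_DMSO and 6.73 and 6.55 in TAC_BIX. The 3 groups did not overlap and stepped down from sham to TAC_DMSO to TAC_BIX. Klf4 fell 1.94-fold in TAC_BIX against sham (-0.96 ± 0.21, 95% interval -1.44 to -0.48, adjusted p = 0.0389). Each step alone measured -0.48 ± 0.21 and did not pass (adjusted p = 0.222 against sham and 0.253 between the constricted groups).

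The other 2 Klf4 probes, detected on all 6 arrays, gave smaller differences. They measured 6.90 and 6.70, and 6.11 and 5.69, in sham, and 6.21 and 6.70, and 5.26 and 5.94, in TAC_BIX. In TAC_BIX against sham they differed by -0.34 ± 0.32 and -0.30 ± 0.31 (adjusted p = 0.533 and 0.573 over all probes with a gene). Between TAC_BIX and TAC_DMSO both differed by 0.13, opposite in sign to the brightest probe. With the mean of the kept probes, Klf4 differed by -0.53 in TAC_BIX against sham and no longer passed (adjusted p = 0.223).

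Most endothelial markers lay above their sham level. The 13 endothelial genes had a median difference of 0.55 in TAC_BIX against sham, with 11 of 13 above 0, and Pecam1 and Flt1, an adhesion molecule and a VEGF receptor of endothelium, rose by 1.24 and 1.18. Neither passed without a sham or a TAC_BIX array, with adjusted p up to 0.241 and 0.263. A second kept probe of each differed by only -0.04 and 0.39. The summed normalized signal of all 13 was 5110 and 3950 in sham, then 6200 and 7180 in TAC_DMSO and 6220 and 7720 in TAC_BIX. The part of cell composition in the Klf2 and Klf4 values was not tested. Nos3 and Thbd, endothelial genes that Klf2 is known to activate, were 7.16 and 6.74, and 7.79 and 7.50, in sham. In TAC_BIX they were 6.94 and 7.29, and 7.85 and 8.05, and neither passed the test. These 2 genes are named for their link to Klf2, after their values were seen.

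Nr4a1 encodes an orphan nuclear receptor without a known natural ligand. Its gene spans chr15:101253902-101274795, so that the start used for the sequence above lies inside the annotated gene. Nr4a1 measured 5.28 and 5.05 in sham, near the detection floor of 4.80 to 4.99, and was not detected on any TAC_DMSO (4.43 and 4.43) or TAC_BIX array (4.37 and 4.27). It therefore has only a bound: Nr4a1 was at least 1.27-fold lower in TAC_BIX than in sham (adjusted p = 0.0332) and at least 1.22-fold lower in TAC_DMSO (adjusted p = 0.0810). A probe kept through its sham arrays alone had to be lower in the other groups, so these p-values carry no weight and no fall is read from them. The bound sets the sham mean against the floor of each array of the lower group, which is the dimmest value of any probe called detected there. The deposited signals were 127 and 114 in sham, then 113 and 110 in TAC_DMSO and 110 and 99 in TAC_BIX, so that the second sham array was barely above the first TAC_DMSO array.

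Zfp36 encodes tristetraprolin, which binds AU-rich elements in messenger RNAs, those of many cytokines and of other early genes among them, and speeds their decay. Zfp36 (chr7:28376784-28379228) measured 10.995 and 11.07 in sham, then 10.50 and 10.56 in TAC_DMSO and 10.24 and 10.16 in TAC_BIX. The groups did not overlap, stepped down in that order, and had SDs of 0.04 or 0.05 each. Zfp36 fell 1.78-fold in TAC_BIX against sham (-0.83 ± 0.16, 95% interval -1.21 to -0.45), with the smallest adjusted p of the members (0.0320). The steps of -0.50 ± 0.16 in TAC_DMSO against sham and -0.33 ± 0.16 in TAC_BIX against TAC_DMSO did not pass (adjusted p = 0.138 and 0.311).

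**Figure D2:**
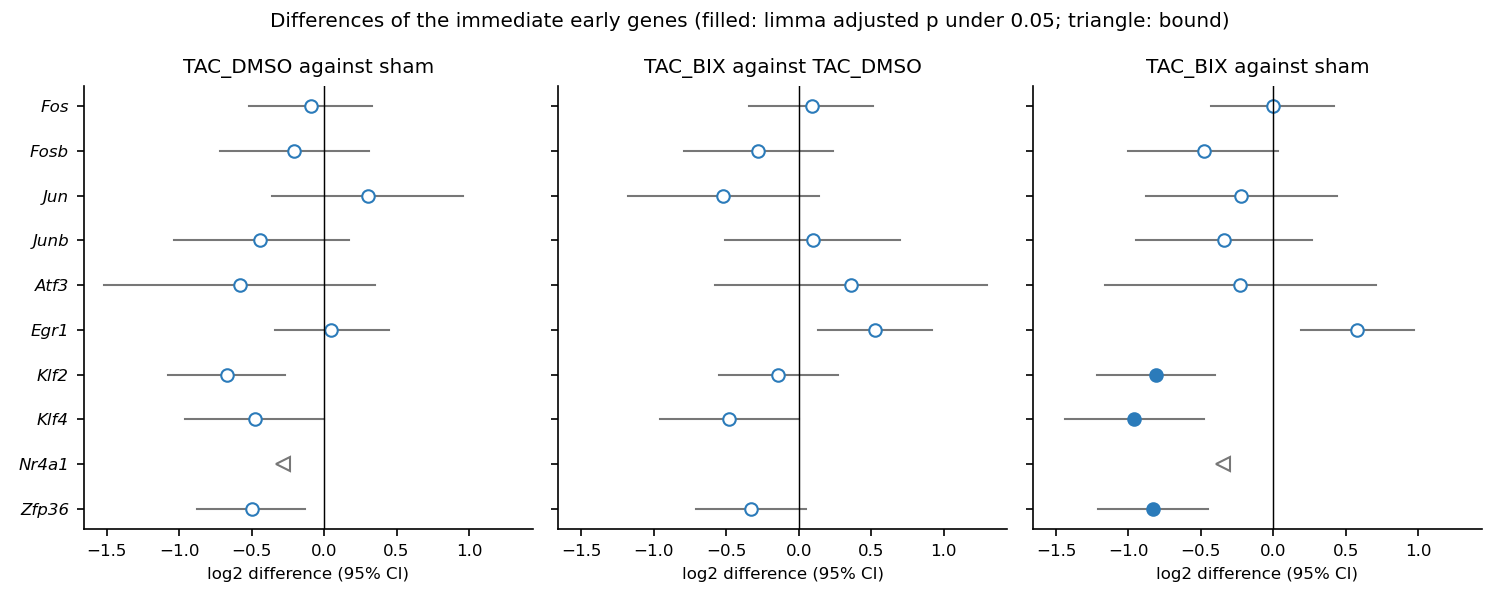
Log2 difference (horizontal axis) of each immediate early gene in the 3 comparisons, with 95% intervals of the limma model as bars; filled points have an adjusted p under 0.05, and triangles give the bound of Nr4a1 in the comparisons with sham. Klf2, Klf4 and Zfp36 are filled in TAC_BIX against sham at -0.81 to -0.96, and no point is filled in the other 2 comparisons.

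Set side by side, the members did not move as 1 block. Of the 9 members detected in each group, the sham mean was the highest of the 3 groups for 7, all but Jun and Egr1, against 36.3% of all genes. That count depends on the scaling. With median scaling 6 of the 9 lay higher in TAC_BIX than in sham, Fos, Fosb, Junb and Atf3 among them. The TAC_BIX mean was the lowest for 5: Fosb, Jun, Klf2, Klf4 and Zfp36. No share over all genes was counted for this order, so nothing is read from it. With median scaling Fosb and Jun lay higher in TAC_BIX than in sham, and Klf2 higher in TAC_BIX than in TAC_DMSO. The median difference over the 9 was -0.44 in TAC_DMSO against sham, -0.14 in TAC_BIX against TAC_DMSO and -0.34 in TAC_BIX against sham, against -0.014, 0.033 and -0.004 over all genes. With median scaling these medians were -0.03, 0.09 and 0.30, so that the last 2 turned sign, and relative to the moved median of all genes they were -0.35, -0.15 and -0.23. Arrays did not overlap, with the member lower, for 4 of the 9 in TAC_DMSO against sham (Junb, Klf2, Klf4 and Zfp36), a separation that 29.0% of all genes showed in that direction and 53.8% in either. In TAC_BIX against sham this held for 4 (Fosb, Klf2, Klf4 and Zfp36, against 28.6% of all genes) beside Egr1 in the other direction, with 58.4% of all genes separated in either. In TAC_BIX against TAC_DMSO it held for 3 (Jun, Klf4 and Zfp36, against 23.0%). The comparisons share arrays, so these counts are not independent of each other.

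The scale decided how far the 3 members fell. In the deposited signals, sham and TAC_BIX overlapped for Klf2 (1424 and 1086 against 1045 and 1333), for Zfp36 (1898 and 1454 against 1471 and 1559) and for the brightest Klf4 probe (237 and 216 against 217 and 221). Scaling all arrays to a common median, in place of quantile normalization, moved the median of all genes by 0.534 in TAC_BIX against sham. The differences were then -0.21 for Klf2, -0.26 for Klf4 and -0.27 for Zfp36, none of which passed (adjusted p = 0.537, 0.433 and 0.421). Relative to the moved median they were -0.75, -0.79 and -0.80, close to the values given above. Over all 17 alternatives the difference relative to the median of all genes ran from -0.94 to -0.69 for Klf2 and from -0.88 to -0.79 for Zfp36. It ran from -1.08 to -0.43 for Klf4.

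**Figure D3:**
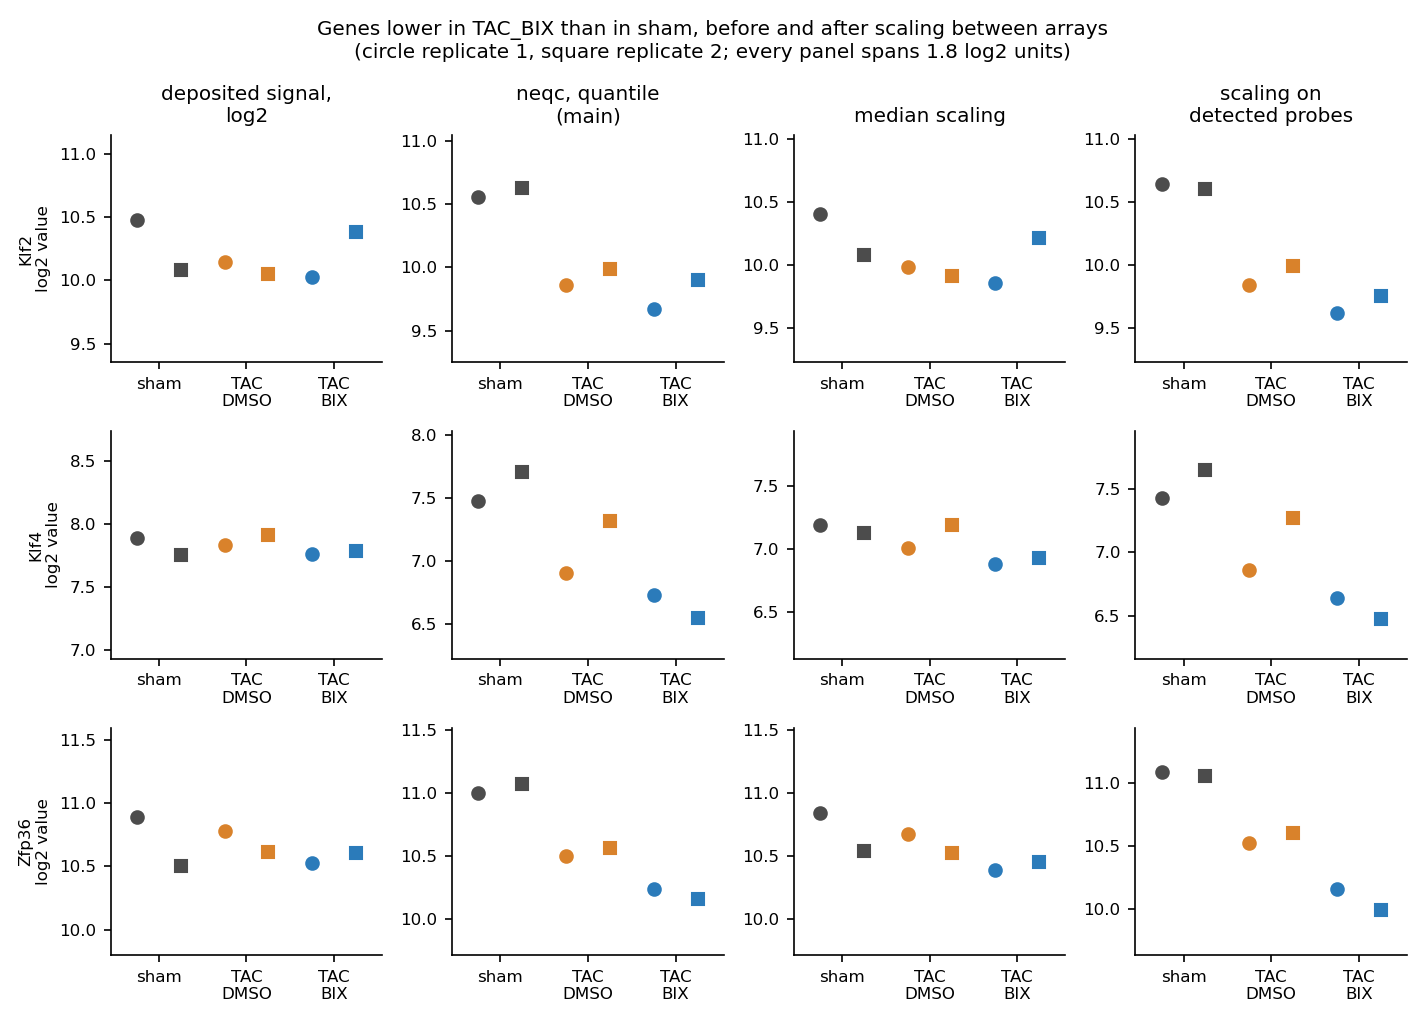
Klf2, Klf4 and Zfp36 (rows) on 4 scales (columns): log2 of the deposited signal, the normalization used throughout, median scaling and scaling on detected probes, each panel spanning the same log2 range with circles for replicate 1 and squares for replicate 2. All 3 overlap between sham and TAC_BIX in the deposited signal and are separated after quantile normalization.

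The calls also needed both sham arrays and both TAC_BIX arrays. Leaving 1 of them out leaves a group of 1 array and fewer residual degrees of freedom. A lost call therefore does not show that 1 array carried the difference. Without either sham array or either TAC_BIX array, 0 of 10 members passed in TAC_BIX against sham with limma. The adjusted p then reached 0.206 for Klf2, 0.267 for Klf4 and 0.225 for Zfp36. The differences themselves moved less, from -0.93 to -0.70 for Klf2, -1.07 to -0.85 for Klf4 and -0.87 to -0.80 for Zfp36 when each array was left out in turn. All genes called in that comparison fell from 701 to 2 without sham replicate 1, to 0 without sham replicate 2 or TAC_BIX replicate 2, and to 216 without TAC_BIX replicate 1. Klf4 did not pass without the detection filter (adjusted p = 0.0602).

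Of 25 listed relatives in the same families, 18 were tested and 0 changed in any comparison. At an unadjusted p under 0.05 there were 6, 2 and 7 of them in TAC_DMSO against sham, TAC_BIX against TAC_DMSO and TAC_BIX against sham. The same shares over all genes were 22.4%, 19.8% and 26.4%. Their median differences were 0.17, 0.02 and 0.30, and with median scaling 0.52, 0.25 and 0.95. Relative to the median of all genes under that scaling they were 0.20, 0.02 and 0.41. The median difference in TAC_BIX against TAC_DMSO was -0.06 with scaling on detected probes. In that comparison 9 of 18 lay above 0 with the normalization used here. Among those with the smallest p, Klf9 and Klf13, Krüppel-like factors, differed by 0.62 ± 0.17 and 0.75 ± 0.20 in TAC_DMSO against sham (adjusted p = 0.106 and 0.105), with 0.23 for a second Klf13 probe. Klf15, a Krüppel-like factor that restrains cardiac hypertrophy, differed by -0.69 ± 0.23, and Fosl2, a Fos relative, by -0.74 ± 0.27 in TAC_BIX against sham (adjusted p = 0.107 and 0.141). Nab1, which binds and represses EGR proteins, differed by 0.60 ± 0.18 between the constricted groups (adjusted p = 0.129), with all 4 kept probes above 0. Egr3 (-0.67 in that comparison) and Atf2 (-0.62 in TAC_DMSO against sham) had a second probe of the opposite sign.

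Of 40 other primary response genes, 36 were tested and Dusp5 alone changed. Dusp5, a nuclear phosphatase that switches off ERK kinases and is itself induced by them, measured 7.71 and 7.59 in sham, then 6.26 and 6.58 in TAC_DMSO and 6.42 and 6.42 in TAC_BIX. The sham arrays stood apart from all 4 others. Dusp5 fell by 1.23 on the log2 scale, 2.35-fold, in both TAC_DMSO and TAC_BIX against sham (SE 0.18 each, adjusted p = 0.0499 and 0.0217). The difference between the constricted groups was 0.00 ± 0.18. The TAC_DMSO call sat at the threshold and was lost without any array but TAC_DMSO replicate 2, with adjusted p up to 0.175. That in TAC_BIX was lost without a sham or a TAC_BIX array, with adjusted p up to 0.200, and with median scaling (-0.54, adjusted p = 0.114).

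Most of this list did not follow Dusp5. The median differences were 0.13, -0.01 and 0.19, with 22 of 36 above 0 in TAC_BIX against sham. The second was 0.16 with median scaling and the last -0.14 with scaling on detected probes. Relative to the median of all genes under those scalings they were -0.07 and 0.05. Ppp1r15a, which restores protein synthesis after stress, differed by -0.70 ± 0.17 in TAC_DMSO against sham (adjusted p = 0.0862). The survival gene Mcl1 and the kinase gene Pim1 differed by 0.57 ± 0.16 and -0.66 ± 0.20 in TAC_BIX against sham (adjusted p = 0.0797 and 0.0887). The clock gene Per1 differed by -0.66 ± 0.20 between the constricted groups (adjusted p = 0.133). The transcription factor gene Irf1 differed by 0.87 ± 0.26 in TAC_DMSO against sham (adjusted p = 0.121), while its 4 other kept probes gave 0.19 to 0.48.

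**Figure D4:**
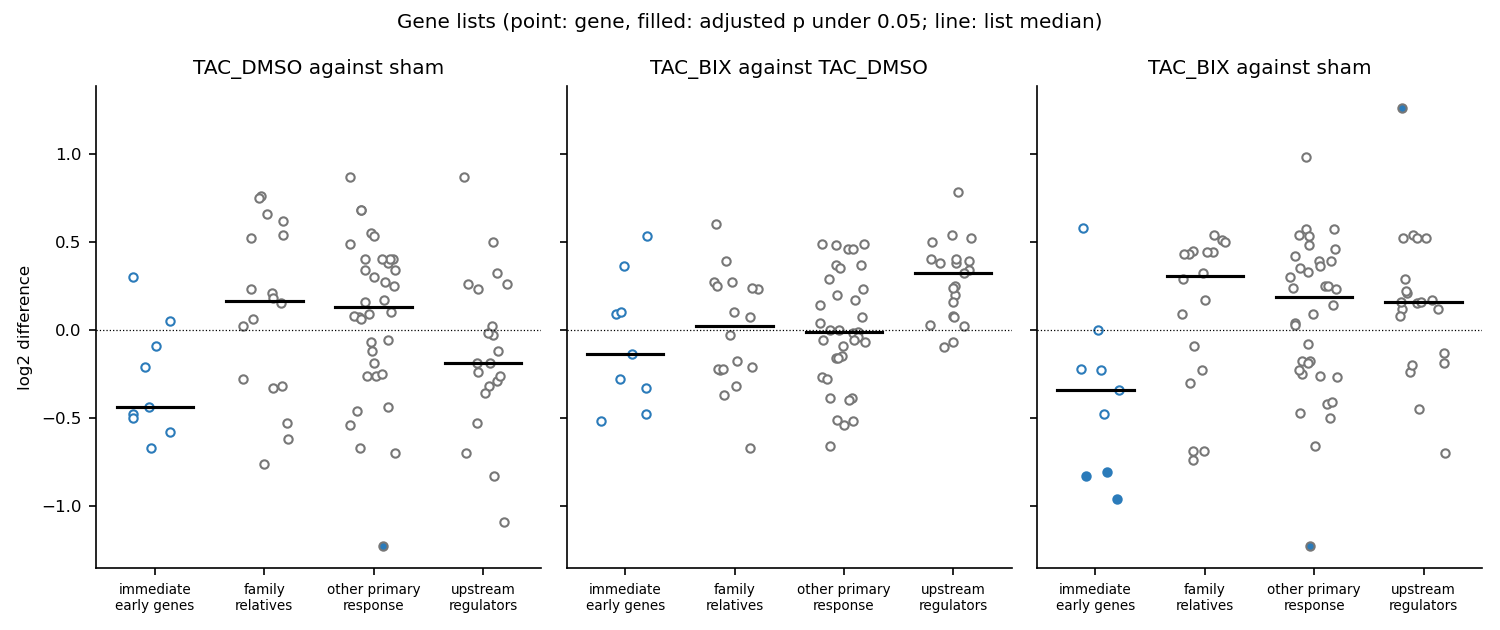
Log2 difference (vertical axis) of each tested gene in the immediate early genes (9, without Nr4a1), their family relatives (18), other primary response genes (36) and upstream regulators (21), in the 3 comparisons; lines are list medians and filled points have an adjusted p under 0.05. The immediate early genes have medians below 0 in all 3 panels, at -0.44, -0.14 and -0.34. The last 2 turn sign with median scaling (0.09 and 0.30), and relative to the median of all genes are then -0.15 and -0.23.

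Upstream regulators, the kinases and factors that carry signals to these promoters, were tested for 21 of 30 listed genes. Their median differences were -0.19, 0.32 and 0.16. The first was 0.19 with median scaling and the last -0.01 with scaling on detected probes. Relative to the median of all genes under those scalings they were -0.12 and 0.18. In all, 19 of 21 lay above 0 in TAC_BIX against TAC_DMSO, where 0 passed with limma and 4 had an unadjusted p under 0.05, beside 19.8% of all genes. With scaling on detected probes 15 of 21 lay above 0 there, with a median of 0.18. Crebbp, a histone acetyltransferase that serves CREB and many other factors, measured 4.86 and 5.09 in sham, then 5.63 and 6.06 in TAC_DMSO and 6.38 and 6.08 in TAC_BIX. It rose by 1.26 ± 0.22 in TAC_BIX against sham (adjusted p = 0.0252) but was detected on only 1 of 2 sham arrays. A second probe differed by 0.90, the authors' processed values gave 0.28 (adjusted p = 0.0747), and the call was lost without any sham or TAC_BIX array (adjusted p up to 0.200). Mapk14, the p38 alpha kinase gene, measured 10.05 and 10.41 in sham, then 9.06 and 9.22 in TAC_DMSO and 9.57 and 9.48 in TAC_BIX. It was lowest in TAC_DMSO without overlap, at -1.09 ± 0.19 against sham (adjusted p = 0.0564). Mapkapk2, a kinase that p38 activates and that restrains tristetraprolin, differed by -0.70 ± 0.19 in TAC_DMSO against sham and by 0.78 ± 0.19 in TAC_BIX against TAC_DMSO (adjusted p = 0.107 and 0.0924).

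Genes that AP-1, EGR1, KLF2 or tristetraprolin are known to act on were tested for 18 of 24 listed. Of these Ccnd1, the cyclin D1 gene and an AP-1 target, rose by 0.77 ± 0.17 in TAC_BIX against sham (adjusted p = 0.0414). It measured 9.0045 and 9.0414 in sham, then 9.89 and 9.68 in TAC_DMSO and 9.81 and 9.77 in TAC_BIX, and all 3 of its probes lay above 0. Without a sham or a TAC_BIX array it did not pass (adjusted p up to 0.241). The median over the list was 0.13, -0.11 and -0.01, and no other gene of it changed. With median scaling it was 0.48, 0.05 and 0.50, and with scaling on detected probes 0.07, -0.26 and -0.23. Relative to the median of all genes it was 0.17, -0.18 and -0.04 under both scalings. Timp1, an inhibitor of matrix proteases, differed by 3.44 ± 0.93 in TAC_DMSO against sham and did not pass (adjusted p = 0.105), with 11.76 and 8.21 on the TAC_DMSO arrays. The growth factor gene Hbegf differed by 0.89 ± 0.23 and 0.81 ± 0.23 in TAC_DMSO and TAC_BIX against sham (adjusted p = 0.0967 and 0.0791). The tristetraprolin target Il1b differed by -0.88 ± 0.31 between the constricted groups (adjusted p = 0.178).

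Stress and chaperone genes, which like immediate early genes can rise during isolation of cells, were tested for 16 of 20 listed. Their median differences were -0.26, 0.24 and -0.12, and with median scaling 0.08, 0.40 and 0.30. Relative to the median of all genes under that scaling they were -0.23, 0.17 and -0.23. Hspe1, a mitochondrial chaperonin gene, fell by 1.55 on the log2 scale in TAC_BIX against sham (adjusted p = 0.0261, up to 0.200 with an array left out). Hspa1b, an inducible HSP70 gene, was not detected in sham and was at least 1.24-fold higher in TAC_BIX without passing (adjusted p = 0.0747). Hspa1a, another inducible HSP70 gene, was brighter and overlapped, at 8.85 and 6.63 in sham and 7.89 and 7.20 in TAC_BIX. The constitutive Hspa8 differed by -0.49 ± 0.16 in TAC_DMSO against sham (adjusted p = 0.145), with -0.56 and 0.00 for its other kept probes.

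Array by array, the median deviation of the 9 members detected in each group from each gene's mean was 0.26 and 0.48 on the sham arrays. It was -0.16 and 0.03 with DMSO and -0.29 and -0.22 with BIX-01294. With the normalization used here, both sham arrays were thus above all others and both TAC_BIX arrays below. The 9 had a median difference of -0.34 in TAC_BIX against sham here. With median scaling it was 0.30, and -0.23 relative to the median of all genes, so this order depends on the scaling. The median of the chaperone and stress list stayed between -0.17 and 0.13 and that of the cardiomyocyte list between -0.10 and 0.15. Single stress genes could differ more. Hspa1a measured 8.85 and 6.63 on the sham arrays, while Hspa8 measured 14.16 and 14.18. The endothelial list was lowest on the sham arrays, at -0.15 and -0.59, and highest on TAC_BIX replicate 2, at 0.45. Fibroblast markers were -0.42 and -0.39 in sham, then 0.48 and -0.22 in TAC_DMSO and -0.08 and 0.68 in TAC_BIX. Macrophage and leukocyte markers differed between replicates, at -0.68 and 0.40 in sham. The 3 neutrophil markers were lowest in TAC_BIX, at -0.52 and -0.59, and 3 erythroid markers ran from -2.39 on sham replicate 2 to 2.39 on TAC_DMSO replicate 2. Smooth muscle and pericyte markers lay between -0.14 and 0.09 except on TAC_BIX replicate 2, at 0.32. Of these marker lists, TAC_BIX against sham had further calls for Tnni3 and S100a8, which fell, and for Lum, Mfap5, Notch3 and Rgs5, which rose. None of these 6 passed without sham replicate 2 or without TAC_BIX replicate 2, with adjusted p up to 0.258. The part of these cell types in the values of the immediate early genes was not tested.

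**Figure D5:**
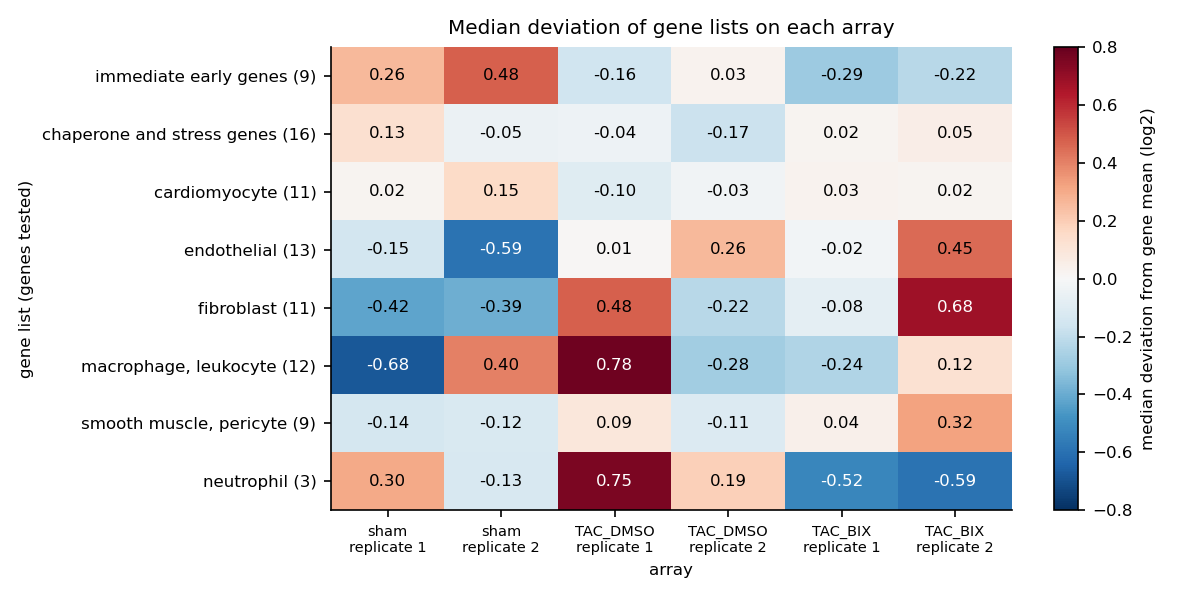
Median deviation (log2, colour and printed value) of 8 gene lists (rows, with genes tested) from each gene's mean over the 6 arrays (columns). The immediate early genes, without Nr4a1, are above 0 on both sham arrays (0.26 and 0.48) and below 0 on both TAC_BIX arrays (-0.29 and -0.22). With median scaling these genes had a median difference of 0.30 in TAC_BIX against sham, and of -0.23 relative to the median of all genes. The endothelial and fibroblast lists are below 0 on both sham arrays.

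The 6 genes whose centred profile over the 6 arrays was nearest to the mean profile of all 10 members were Zfp458, Dis3l, Socs4, Lce1c, Mif4gd and C8g. The members' mean profile was 0.25 and 0.25 in sham, then -0.19 and 0.01 in TAC_DMSO and -0.11 and -0.22 in TAC_BIX. The root mean square difference from it was 0.039 log2 for Zfp458, 0.041 for Dis3l, 0.045 for Socs4, 0.047 for both Lce1c and Mif4gd, and 0.050 for C8g. Zfp458 and Lce1c were detected on only 2 of 6 arrays. Nr4a1, kept through its sham arrays alone, is part of the members' mean profile, at 0.64 and 0.41 in sham. The height of that profile in sham is therefore partly set by the detection filter. This ranking rests on 6 arrays and is only a description of profiles on them.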

How the data were processed

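RNA of 6 samples was measured on Illumina arrays. The submitters' processing notes name GenomeStudio 2011.1, lumi and limma without their roles. The deposited table holds each probe's signal intensity, not background-subtracted or scaled between arrays, beside a detection p-value from the authors. The deposited processed table holds log2 values, with a median of 7.19 on sham replicate 1, and served as an alternative.

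The signals were corrected for background (taken from the detection p-values) and quantile normalized by neqc (offset 16; limma 3.58.1, R 4.3.3). In the platform annotation 34885 probes had 1 gene, 18 had several and 10378 had none. Gene names were checked by Entrez identifier (34807 probes matched GRCm38.p6). Kept probes had a detection p-value under 0.05 on 2 or more arrays. The brightest kept probe on average stood for its gene, which gave 10538 genes. Precision is limited by the number of arrays.

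The limma model (lmFit, eBayes) used all 6 arrays and estimated a mean for each group, with 3 residual and 4.62 prior degrees of freedom. Tests were two-sided, with Benjamini-Hochberg adjustment over 10538 genes. Nothing ties arrays to single mice, so the spread that the p-values measure may be partly technical. The fit was also run on data simulated from its own variances, which tests neither the scaling between arrays nor the member calls. Tables were summarised with pandas 2.3.3 in Python 3.11.15.

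The members and lists were chosen with earlier results of these data known. The text names all members, up to 3 genes with the smallest p per comparison in each list described, the genes called in those lists and the 6 genes nearest in profile. Myh6, Nos3, Thbd and Hspa1a were named outside this rule, after their values were seen. Promoter sequences are RefSeq's.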

Additional observations from a re-analysis of the deposited data

How the results depend on the processing

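With 2 arrays per group, each result rests on few arrays, and signals near the detection floor understate differences. Of 507 member differences over 17 alternatives, 443 kept their direction and their side of the threshold, 12 came to pass, 28 no longer passed and 24 turned sign. The cause of these shifts was not tested. Scaling on detected probes was chosen after seeing the data, and slide or scan as a block was not run because the files give neither.

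Against 43, 0 and 701 genes called (TAC_DMSO against sham, TAC_BIX against TAC_DMSO, TAC_BIX against sham), median scaling called 956 (932 higher, 24 lower), 9 and 3771 (3642 higher, 129 lower), and scaling on detected probes 110, 447 (14 higher, 433 lower) and 1428 (292 higher, 1136 lower). These settings moved the median of all genes by 0.314, 0.235 and 0.534, and by -0.098, -0.079 and -0.192. The first 2 comparisons gave 284 and 709 with log2 quantile normalization, 275 and 563 with offset 50, 93 and 642 with the authors' values, and 134 and 359 with detection on all 6 arrays. The intensity trend and robust prior gave 426, 699 and 1136. No detection filter gave 1 in TAC_DMSO against sham and 369 in TAC_BIX against sham. Only the 2 groups compared gave 0 in TAC_DMSO against sham (2203 at an unadjusted p under 0.05). Leaving out 1 array gave 0 to 166, 0 to 6 and 0 to 738.

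Members called in TAC_BIX against sham were 4 with Nr4a1, whose filter favours a call, but 2 with median scaling (Nr4a1 lower, Egr1 higher) and 0 to 4 with 1 array left out. In TAC_DMSO against sham they were 2 with log2 quantile normalization (Klf2 and Zfp36), 1 with the authors' values (Zfp36) and 1 with the intensity trend (Klf2). In TAC_BIX against TAC_DMSO, Egr1 was the 1 called with each of these 3 settings.

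With the replicate block, 0, 0 and 253 genes and 0 members were called with limma (2117, 1897 and 2508 genes at an unadjusted p under 0.05), and the 4 members had adjusted p from 0.0634 to 0.0686. Replicate differences correlated across genes at 0.09 (sham and TAC_BIX), -0.24 (sham and TAC_DMSO) and -0.16 (TAC_BIX and TAC_DMSO), so the numbers were not taken to pair the arrays.

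With median scaling these differences turned sign: in TAC_DMSO against sham Fos 0.31 and Fosb 0.21, in TAC_BIX against TAC_DMSO Fosb 0.026 and Klf2 0.086, and in TAC_BIX against sham Fos 0.455, Fosb 0.24, Jun 0.48, Junb 0.30 and Atf3 0.48. With scaling on detected probes Fos was -0.17 in TAC_BIX against TAC_DMSO. With 1 array left out, TAC_DMSO against sham ranged from -0.24 to 0.05 for Fos, -0.50 to 0.083 for Fosb and -0.025 to 0.13 for Egr1. TAC_BIX against TAC_DMSO ranged from -0.007 to 0.185 for Fos, -0.57 to 0.011 for Fosb, -0.15 to 0.34 for Junb and -0.19 to 0.90 for Atf3. TAC_BIX against sham ranged from -0.15 to 0.14 for Fos, -0.57 to 0.13 for Jun and -0.65 to 0.20 for Atf3. None of these had passed.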
